A study of Homo sapiens with 4 samples.

Results

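The protein 4.1 genes EPB41, EPB41L1, EPB41L2 and EPB41L3 were followed through the 5 deposited tables of alternative splicing events by gene symbol. These tables held 103 events of the family among 121269 in all, 22 of EPB41, 54 of EPB41L1 and 27 of EPB41L2. They listed no event of EPB41L3. The family was chosen with earlier results in view, because exons of several members had lower inclusion in the RBFOXi libraries. The differences between conditions in the family are therefore given as descriptions. Calls from the fit over the whole table are given as counts beside the share called among all events, and are no independent evidence for the family. The RNA-seq covered U87MG, a human cell line that the labels describe as likely glioblastoma. Cells were transfected by lipofectamine 2000 with a 2.5 µM oligonucleotide, either RBFOXi, a decoy that carries the binding motif of the RBFOX splicing factors, or SCRM, a scrambled control. Each condition had 2 libraries, which the study's methods describe as independent biological replicates, and there was no untransfected group. The oligonucleotide of RBFOXi replicate 1 was labelled as cy5-RBFOXi, whereas no dye was named for the other libraries.

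Protein 4.1 was first known from the red cell, where it ties the spectrin and actin network to the membrane. EPB41 encodes this protein (4.1R), and its relatives EPB41L1 (4.1N), EPB41L2 (4.1G) and EPB41L3 (4.1B) share a FERM domain that binds membrane proteins, a spectrin and actin binding domain and a carboxy-terminal domain, joined by more variable stretches. Transcripts of the family are spliced in many forms, and the best known alternative exon of EPB41 lies in the spectrin and actin binding domain. RBFOX proteins bind UGCAUG in RNA, and sites in the intron after an exon are known to favour its inclusion. The proportion spliced in (PSI) runs from 0, when no transcript has the exon, to 1, when all do. Delta PSI was taken as mean RBFOXi PSI less mean SCRM PSI. These are bulk RNA measurements, in which fewer cells with a form cannot be told apart from a lower share of that form in every cell.

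Of the 31 family exons tested, 5 had UGCAUG within 300 nt of intron sequence downstream, and sequences at these exons are shown because the motif is the one carried by the decoy. Their delta PSI ran from -0.44 to -0.04, and exons without the motif in that stretch differed as well. A pair of the 5, the 63 nt exons of EPB41 (chr1:29386934-29386996, plus strand) and EPB41L2 (chr6:131201284-131201346, minus strand), are counterparts in the 2 genes. Their sequences from hg19 are shown 5′ to 3′ on the transcript strand to let them be compared, with the bases that differ between both in capitals.
EPB41 exon of 63 nt: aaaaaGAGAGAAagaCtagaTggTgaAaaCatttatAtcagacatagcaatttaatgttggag
EPB41L2 exon of 63 nt: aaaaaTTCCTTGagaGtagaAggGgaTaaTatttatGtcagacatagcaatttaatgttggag
The exons were identical at 50 of 63 bases (79.4%), and the last stretch of both exons had no difference.

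Introns with the motif are shown for the number of copies and their distance from the exon, with TGCATG in capitals.
EPB41 intron after the exon of 63 nt: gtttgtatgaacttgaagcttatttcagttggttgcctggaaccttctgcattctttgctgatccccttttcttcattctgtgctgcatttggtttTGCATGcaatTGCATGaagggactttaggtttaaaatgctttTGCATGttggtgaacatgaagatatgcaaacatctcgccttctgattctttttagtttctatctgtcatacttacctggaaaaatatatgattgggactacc
EPB41L2 intron after the exon of 147 nt: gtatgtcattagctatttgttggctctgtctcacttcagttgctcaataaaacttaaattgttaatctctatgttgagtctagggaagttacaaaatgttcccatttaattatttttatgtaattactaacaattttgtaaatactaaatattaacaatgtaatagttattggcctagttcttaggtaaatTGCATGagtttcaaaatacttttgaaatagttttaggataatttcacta
EPB41L1 intron after the exon of 411 nt: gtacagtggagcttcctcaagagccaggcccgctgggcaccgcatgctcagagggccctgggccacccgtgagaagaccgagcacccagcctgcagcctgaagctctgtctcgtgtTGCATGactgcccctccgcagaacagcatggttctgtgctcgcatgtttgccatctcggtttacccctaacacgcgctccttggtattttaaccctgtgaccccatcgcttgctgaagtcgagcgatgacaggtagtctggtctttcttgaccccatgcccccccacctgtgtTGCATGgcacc
EPB41L1 intron after the exon of 36 nt: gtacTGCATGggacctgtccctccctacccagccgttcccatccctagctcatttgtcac
The intron after the 63 nt exon of EPB41 had 3 copies, which began at nt 97, 107 and 139, counted from the first intron base. The intron after the 147 nt exon of EPB41L2 (chr6:131199244-131199390, minus strand) had 1 copy, at nt 192. The intron after the 411 nt exon of EPB41L1 (chr20:34797410-34797820, plus strand) had copies at nt 117 and 290. In the intron after the 36 nt exon of EPB41L1 (chr20:34783251-34783286, plus strand) the only copy in this stretch began at nt 5, next to the 5′ splice site. All 5 exons are coding in their whole length in the GENCODE 44 annotation lifted to this build. They have lengths that are multiples of 3, so that inclusion or skipping keeps the reading frame.

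SCRM replicate 1 stood apart from the other libraries in its coverage. Exons with a PSI of at least 0.9 in every library were used to compare counts along 2567 genes with at least 6 such exons. With these exons split into 3 groups along each gene, the median log2 ratio of count density in the 5′ group over the 3′ group was -1.02 in SCRM replicate 1, against -0.08 in both RBFOXi libraries and 0.17 in SCRM replicate 2. It was lower in SCRM replicate 1 than in SCRM replicate 2 in 97.2% of these genes. EPB41L2 showed this with ratios of -0.29 and -0.12 in the RBFOXi libraries, -2.20 in SCRM replicate 1 and 0.19 in SCRM replicate 2. In EPB41 the ratios were -0.93, -0.93, -1.71 and -1.004, and in EPB41L1 they were -0.70, -0.64, -1.67 and -0.64, in the same order. Counts of SCRM replicate 1 were therefore low at the 5′ exons of all 3 genes, and its part in the PSI differences was not tested, so delta PSI is given with and without this library.

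**Figure D1:**
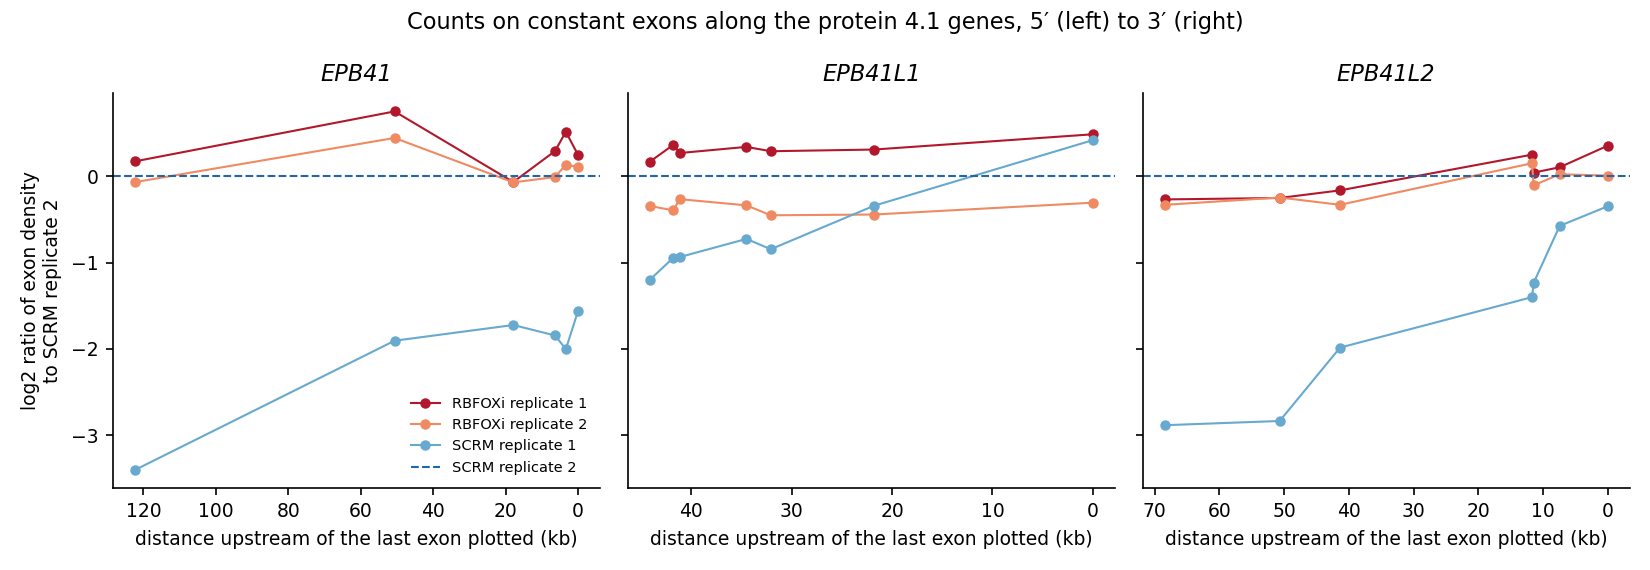
Log2 ratio of count density (inclusion counts per nt of effective length, scaled to the library total) to SCRM replicate 2 on the y axis, for constant exons of EPB41, EPB41L1 and EPB41L2 by distance upstream of the last exon plotted in kb on the x axis. SCRM replicate 1 lay below the other libraries at the 5′ end of each gene, reaching -3.40 at the first EPB41 exon, while the RBFOXi libraries were at most 0.75 above or 0.45 below SCRM replicate 2.

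The count density of the members on these exons, in counts per nt per 1000000 counts of the library, was lowest in EPB41. It was 0.0124 and 0.0113 in the RBFOXi libraries and 0.00351 and 0.0111 in the SCRM libraries. EPB41L1 had densities of 0.0875 and 0.0505 against 0.0376 and 0.0625. EPB41L2 had 0.0571 and 0.0478 against 0.0190 and 0.0565. EPB41 thus lay between the 11.4th and 20.6th percentile of the 2567 genes over the libraries, and the other 2 genes between the 52nd and 81.2nd. The PSI values of EPB41 rest on fewer counts accordingly. The cell line's markers VIM, CD44, TNC and FN1 each had exons with at least 17378 counts in every library. The markers GFAP, S100B, SOX2 and OLIG2 had no skipped exon event in the table. PTPRC, for blood cells, and PECAM1, for endothelium, had none either. A gene without a listed event has no counts here, so its expression cannot be judged from that absence. Of the neuron markers, RBFOX3 had no event, and SYT1, SNAP25 and MAP2 reached 90, 808 and 634 counts at most. RBFOX2, the RBFOX gene with events here, had up to 1334 and 1601 inclusion counts in the RBFOXi libraries and 351 and 2392 in the SCRM libraries, while RBFOX1 had no event.

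Of the 71 skipped exon events of the family, 47 passed the filter on low counts, at 31 distinct exons, 7 in EPB41, 14 in EPB41L1 and 10 in EPB41L2. Calls required an adjusted p-value (limma) under 0.05 and a PSI difference of 0.1 or more, and 3 of the 47 events were called, against 0.0682% of all 39615 tested skipped exon events. All 3 had lower inclusion with RBFOXi, namely the 63 nt and 147 nt exons of EPB41L2 and the 411 nt exon of EPB41L1. The EPB41L2 exons are set against the same skipping junction, so their calls are not independent. With either SCRM library left out, 0 family events and 1 event in all were called. These shares are set side by side as a description, since the family was chosen on the same contrast. A delta PSI of -0.1 or lower was found for 7 of the 47 events and of 0.1 or higher for 1, whereas differences of this size in either direction made up 4.83% of all tested events. Without SCRM replicate 1 these counts were 5 and 0, and the share of all events was 4.77%. Both RBFOXi libraries lay below both SCRM libraries in 10 of the 47 events, with a background of 16.5%. The median delta PSI of the family events was -0.00446, close to the -5.65e-05 of all tested events. The large differences of the family thus lay in few exons, with most of its events near 0. Of the 31 distinct exons, 14 had PSI values of at most 0.0229 or at least 0.917 in every library.

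The other 17 distinct exons had a mean PSI between 0.05 and 0.95 in the SCRM libraries or differed by 0.1 or more between conditions, and are called alternative here. EPB41 had 3 of them, EPB41L1 had 9 and EPB41L2 had 5. In the SCRM libraries their mean PSI ran from 0.0631 for the 102 nt exon of EPB41L2 to 0.932 for the 84 nt exon of EPB41L1 at chr20:34807683-34807766. In the upper part of this order the 411 nt exon of EPB41L1 (0.758), the 81 nt (0.742), 147 nt (0.684) and 63 nt (0.628) exons of EPB41L2 and the 63 nt exon of EPB41 (0.589) followed each other. Each step between these was smaller than the larger SD of the 2 neighbours (0.00609, 0.101, 0.0468, 0.0730 and 0.117, n = 2). In the RBFOXi libraries the same exons stood at 0.414, 0.432, 0.245, 0.224 and 0.227. All 5 exons with the motif downstream were among the 17, and their delta PSI was negative in each case. Of the 12 alternative exons without it, 6 had a negative and 6 a positive delta PSI. The 63 nt and 147 nt exons of EPB41L2 share a skipping junction, and the family was chosen for lower inclusion. A link between the motif and the direction was not tested.

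**Figure D2:**
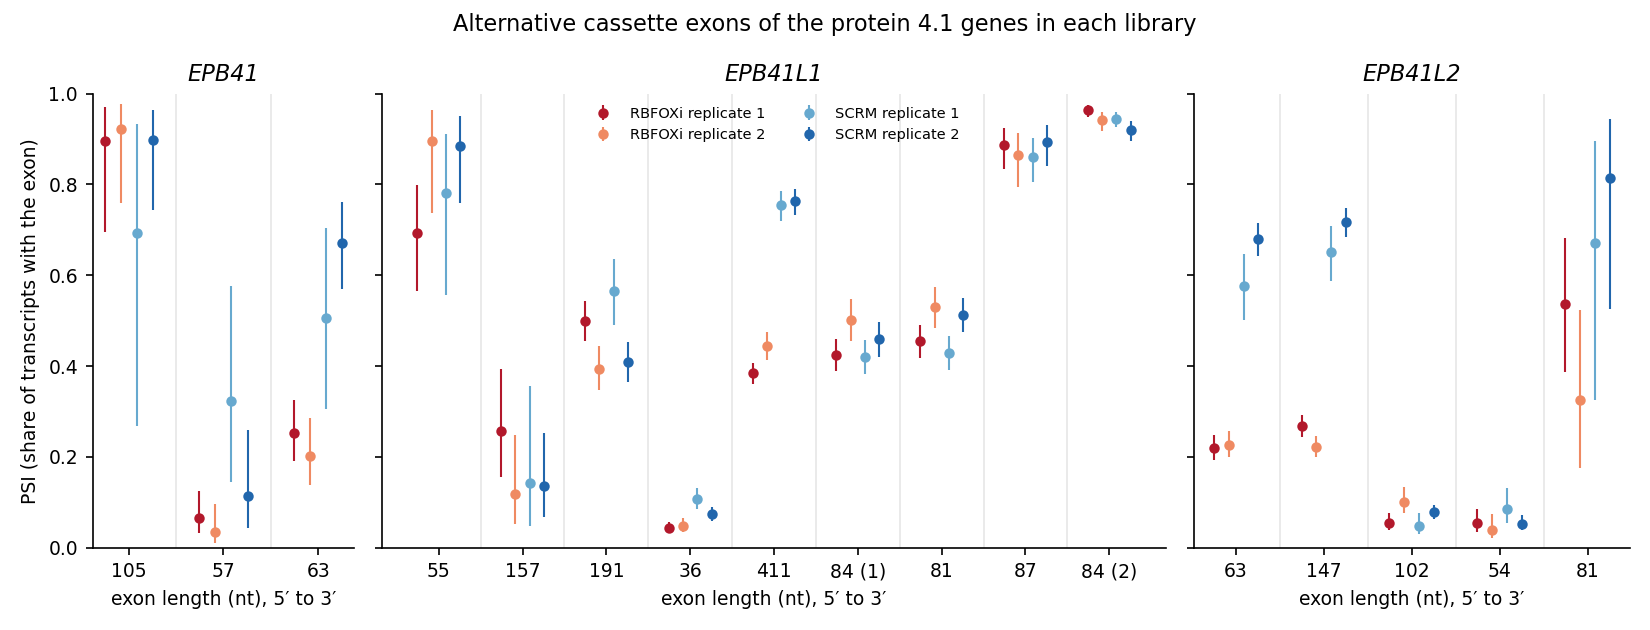
PSI of the 17 alternative cassette exons in each library (y axis), by gene and in 5′ to 3′ order with the exon length in nt on the x axis, and vertical bars for the 95% Wilson interval of the counts, which covers counting error only. The RBFOXi libraries sit below the SCRM libraries without overlapping intervals at the 411 nt exon of EPB41L1 and the 63 nt and 147 nt exons of EPB41L2, and most other exons have mixed orders.

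EPB41L2, which encodes the widely expressed relative 4.1G, had the largest difference. Its 147 nt exon had a PSI of 0.267 and 0.223 in the RBFOXi libraries and 0.651 and 0.717 in the SCRM libraries. Its 63 nt exon, the counterpart of the spectrin and actin binding exon of EPB41, had 0.220 and 0.227 against 0.576 and 0.680. The conditions did not overlap at either exon. Delta PSI was -0.44 for the 147 nt exon, and -0.47 without SCRM replicate 1. For the 63 nt exon it was -0.40, and -0.46 without that library. Counts per library ran from 379 to 1325 for the 147 nt exon and from 183 to 740 for the 63 nt exon.

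Junctions that skip just one exon of this EPB41L2 pair were rare. The junction that skips both had 541 and 505 counts in the RBFOXi libraries and 66 and 178 in the SCRM libraries. The junction that skips the 63 nt exon alone, next to an included 147 nt exon, had 3, 6, 4 and 0 counts in the same order. The junction that skips the 147 nt exon alone, after an included 63 nt exon, had 0, 0, 0 and 1. Given the other exon, the PSI of the 63 nt exon was therefore between 0.974 and 1, and that of the 147 nt exon between 0.998 and 1, in all 4 libraries. Inclusion counts of the 63 nt exon before the 147 nt exon were 329 and 318 in the RBFOXi libraries and 197 and 800 in the SCRM libraries. Those of the 147 nt exon after the 63 nt exon were 630 and 488 against 389 and 1456. The junction that leaves out both exons was thus higher in both RBFOXi libraries than in both SCRM libraries. Inclusion counts of the RBFOXi libraries lay above SCRM replicate 1 and below SCRM replicate 2. These counts are not scaled for coverage, and the count density of EPB41L2 was 0.0190 in SCRM replicate 1 and 0.0565 in SCRM replicate 2. In the RBFOXi libraries the density was 0.0571 and 0.0478, nearer to SCRM replicate 2.

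The events of the single exons assume a junction from the exon straight to a flank beyond its partner, and that junction hardly occurred. Their PSI thus counts only part of the inclusion reads, so PSI was also computed for the pair, a choice made after these counts were seen. With the inclusion counts of the 147 nt exon, the pair had a PSI of 0.346 and 0.305 in the RBFOXi libraries and 0.728 and 0.788 in the SCRM libraries. The counts of the 63 nt exon gave 0.318 and 0.326 against 0.696 and 0.775. Every library was higher as a pair than by the same exon alone, and delta PSI remained at -0.43 and -0.41 by the 2 counts. Without SCRM replicate 1 these were -0.46 and -0.45. The table of mutually exclusive exons also lists the 63 nt and 147 nt exons as alternatives to each other. There the share of the 63 nt exon was 0.436, 0.506, 0.422 and 0.456, which compares the reads of 2 exons that were in the same transcripts.

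**Figure D3:**
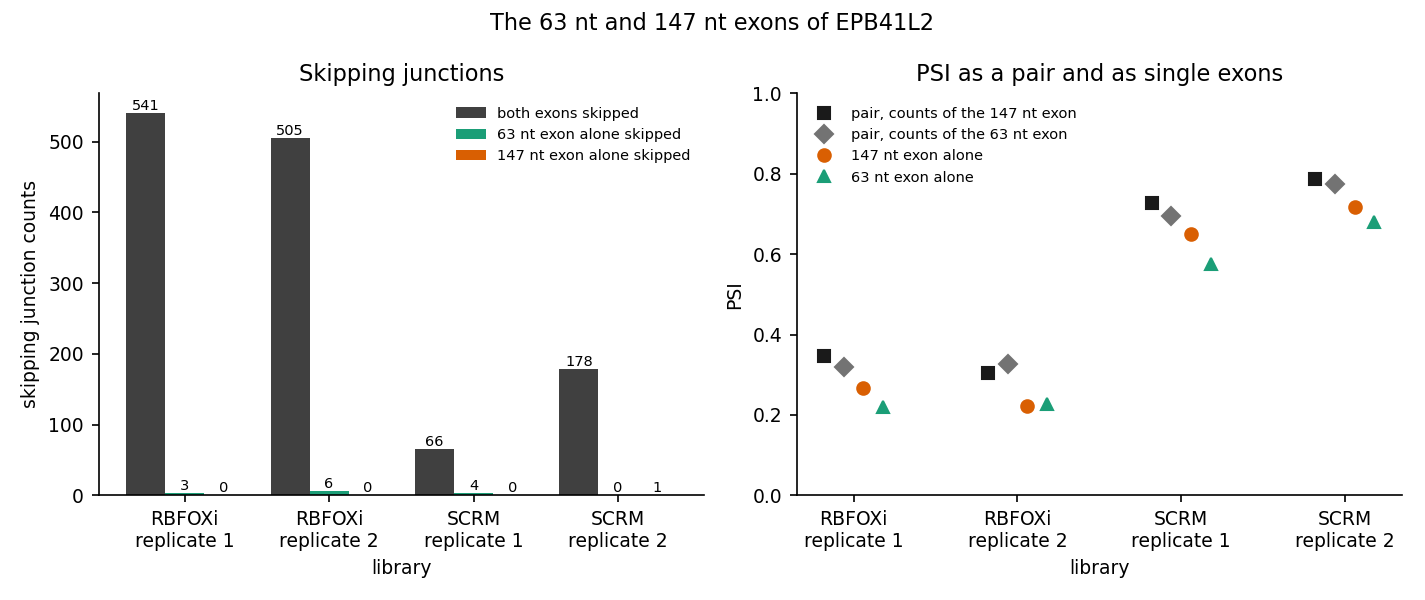
Left, counts of the junctions that skip both the 63 nt and 147 nt exons of EPB41L2, the 63 nt exon alone or the 147 nt exon alone, per library; right, PSI per library for the pair and for the single exons. Skipping of both had 66 to 541 counts and skipping of a single exon 0 to 6, and the RBFOXi libraries lay below the SCRM libraries by every measure.

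Further exons of EPB41L2 lie downstream of this pair. The 102 nt exon (chr6:131197814-131197915) had a PSI of 0.0549 and 0.101 against 0.0484 and 0.0778, and the 54 nt exon (chr6:131191468-131191521) had 0.0554 and 0.0401 against 0.0860 and 0.0527. The conditions overlapped at both, and delta PSI was 0.02 and -0.02. These exons are measured from the 147 nt exon onwards, so they describe transcripts that have the pair. The 81 nt exon (chr6:131184778-131184858) had 0.538 and 0.326 against 0.670 and 0.813, with a delta PSI of -0.31 and -0.38 without SCRM replicate 1. Its event rests on 9 to 45 counts per library and sets the exon against a junction that spans all exons between distant flanks. The intervals of SCRM replicate 1 (0.325 to 0.896) and of RBFOXi replicate 1 (0.387 to 0.682) overlapped widely. An alternative 5′ splice site extends an EPB41L2 exon by 249 nt (chr6:131190703-131191266 in the long form). The share of the long form was 0.852 and 0.832 with RBFOXi and 0.926 and 0.912 with SCRM, on 999 to 2634 counts. Delta PSI was -0.08, and -0.07 without SCRM replicate 1. The conditions did not overlap, and the event was not called. Near the 5′ end of the gene, a 13 nt extension (chr6:131384282-131384462) had 0.185 and 0.194 against 0.297 and 0.193, so that SCRM replicate 1 alone was higher. A further event at this 13 nt site had 1 to 19 counts and was not tested.

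EPB41L1 encodes 4.1N, the relative known from neurons. Its 411 nt exon had a PSI of 0.384 and 0.444 in the RBFOXi libraries and 0.754 and 0.762 in the SCRM libraries. The RBFOXi libraries were both well below the SCRM libraries, and the latter differed by an SD of 0.00609 (n = 2). Delta PSI was -0.34, and -0.35 without SCRM replicate 1, with 1569 to 2986 counts per library. The exon is long, so most reads within it count as inclusion, and the plain share of inclusion counts gave a delta of -0.15. The 36 nt exon with the motif at its 5′ splice site had 0.0446 and 0.0479 against 0.107 and 0.0736. It was thus rare in all libraries and rarer in both RBFOXi libraries, with a delta PSI of -0.04, or -0.03 without SCRM replicate 1. The interval of RBFOXi replicate 2 (0.0352 to 0.0649) overlapped that of SCRM replicate 2 (0.0593 to 0.0909).

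The remaining alternative exons of EPB41L1 showed no separation of the conditions. Toward the 3′ end, an exon with 2 start sites 3 nt apart had PSI values of 0.424 and 0.502 against 0.419 and 0.459 in its 84 nt form (chr20:34802279-34802362). Its 81 nt form had 0.454 and 0.530 against 0.429 and 0.513. Both forms share most of their reads and the same skipping junction. The use of the upstream start site was 0.449 and 0.451 with RBFOXi and 0.492 and 0.400 with SCRM, a delta of 0.00440. These levels lay near the middle of the range and nearly alike in both conditions. The following exons of 87 nt (chr20:34806798-34806884) and 84 nt had PSI values between 0.861 and 0.894 and between 0.920 and 0.964. The exons at the 5′ end of the gene, of 55, 157 and 191 nt, are the 3 alternative exons of the family whose lengths are not multiples of 3. Those of 55 nt and 157 nt are noncoding in the annotation, and that of 191 nt is coding in part. The 191 nt exon (chr20:34761686-34761876) had 0.4997 and 0.394 against 0.564 and 0.409, and the other 2 rested on 10 to 60 counts per library. A 1932 nt exon (chr20:34793771-34795702), the longest, was included at no more than 0.0229 in any library.

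EPB41 itself, encoding 4.1R, had the lowest counts. The 63 nt exon of its spectrin and actin binding domain had a PSI of 0.252 and 0.202 in the RBFOXi libraries and 0.506 and 0.672 in the SCRM libraries. Inclusion counts were 43 and 24 against 12 and 72, and skipping counts were 98 and 73 against 9 and 27. Both RBFOXi libraries were below both SCRM libraries, but the 95% interval of SCRM replicate 1 (0.307 to 0.703, 21 counts) reached down to that of RBFOXi replicate 1 (0.191 to 0.325). Delta PSI was -0.36, and -0.45 without SCRM replicate 1. The event was not called by limma with condition as the only term (adjusted p = 0.614) but passed when the replicate number entered limma as a block (adjusted p = 0.0182). Against SCRM replicate 2 alone the difference was thus larger than against both. Given an included 57 nt exon upstream of it (chr1:29385101-29385157), the 63 nt exon had 3, 0, 1 and 0 skipping counts and 33, 17, 10 and 49 inclusion counts, which include reads inside the exon. The 57 nt exon itself had 0.0656 and 0.0341 against 0.323 and 0.113, from 8, 3, 5 and 4 inclusion counts. Its delta PSI of -0.17 came to -0.06 without SCRM replicate 1. The 57 nt and 63 nt exons are set against the same skipping junction, so their values are not independent. The 105 nt exon (chr1:29323727-29323831) was the family's only alternative exon with a delta PSI of 0.1 or higher, at 0.11. It had 0.895 and 0.921 against 0.694 and 0.897, where SCRM replicate 1 had 9 counts, and delta PSI was 0.01 without that library.

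Side by side, the 63 nt exons of EPB41 and EPB41L2 had close levels in each condition by the events of the single exons. The RBFOXi libraries ran from 0.202 to 0.252 in EPB41 and from 0.220 to 0.227 in EPB41L2. The SCRM libraries ran from 0.506 to 0.672 and from 0.576 to 0.680. As a pair, with the counts of its 63 nt exon, EPB41L2 had 0.318 and 0.326 with RBFOXi and 0.696 and 0.775 with SCRM. These lay above the EPB41 values in both conditions, so the closeness depends on the measure. The order of the SCRM libraries was the same in both genes, with replicate 1 lower. The genes share these libraries, so this is not a repeat of the measurement.

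Over 300 nt downstream, or the whole intron where it is shorter, 5 of the 31 family exons (16.1%) had UGCAUG on the transcript strand, compared with 8.36% of the 30617 distinct cassette exons tested in the whole series. In the last 300 nt of the upstream intron the shares were 12.9% (4 exons) and 8.16%. For the shorter GCATG, which is part of UGCAUG, the downstream shares were 35.5% and 24.1% and the upstream shares 19.4% and 23.7%. None of the 14 exons that were not alternative had UGCAUG within 300 nt downstream, while 3 of them had it upstream. It lay downstream of 4 of the 6 exons with a delta PSI of -0.1 or lower. Among these are the 63 nt and 147 nt exons of EPB41L2, which share a skipping junction. The 57 nt exon of EPB41 and the 81 nt exon of EPB41L2 had such a delta PSI without the motif in that stretch, on 14 to 106 and 9 to 45 counts per library. The matches are letters in the genome and not measured binding. Lengths that are multiples of 3 were found in 25 of the 31 family exons and in 42.6% of all 30617, and 27 of the 31 are coding in their whole length.

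**Figure D4:**
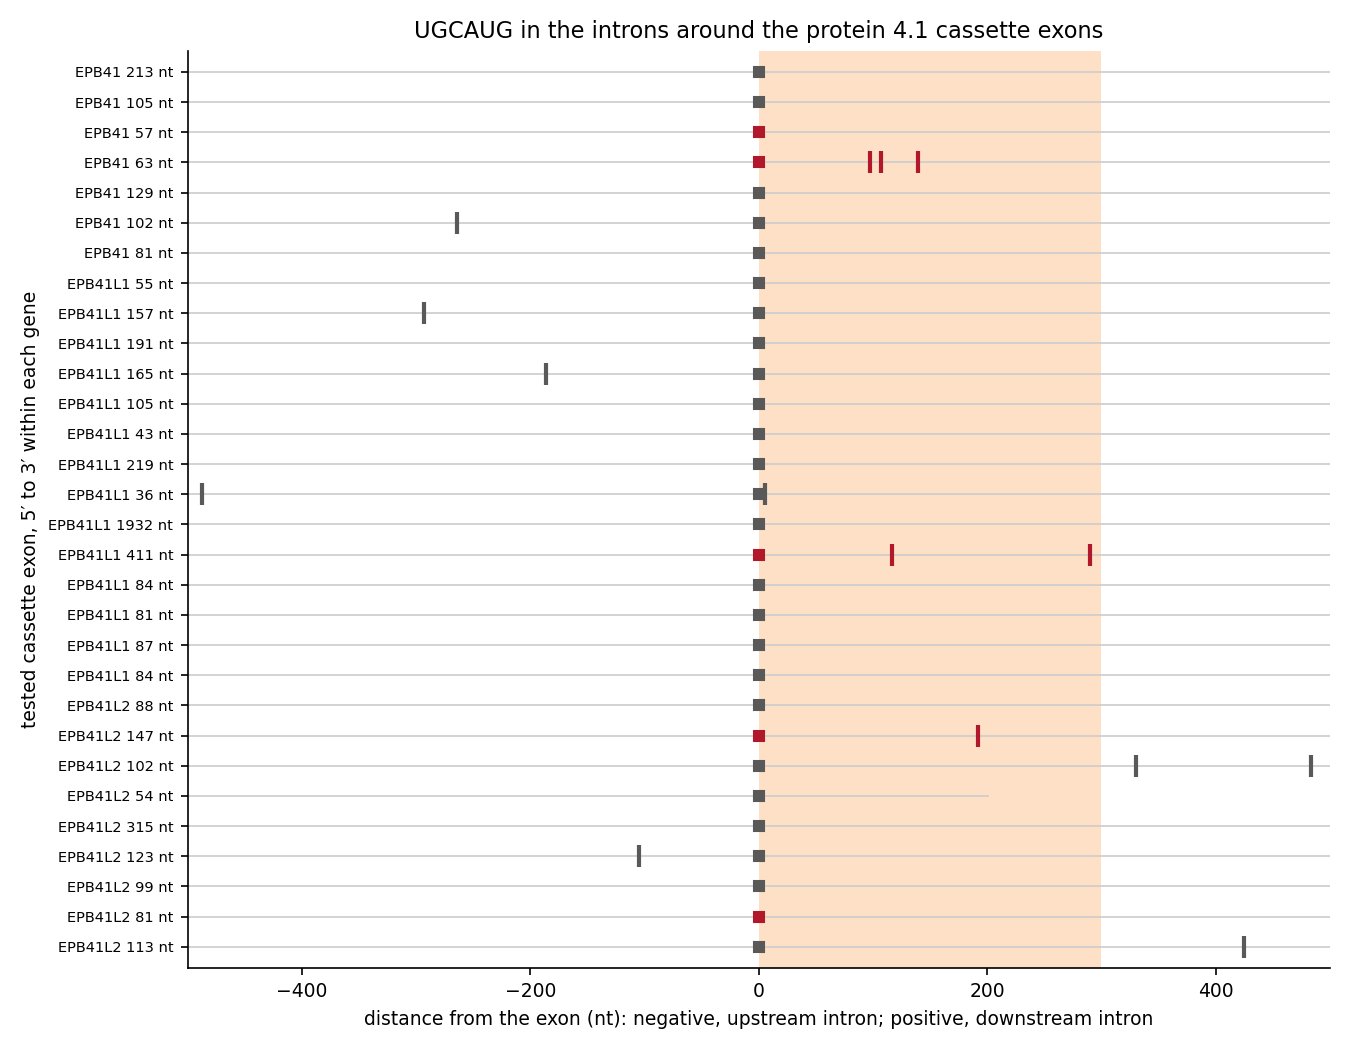
Positions of UGCAUG (ticks) up to 500 nt into the introns on either side of 30 of the tested cassette exons (squares at 0), with distance from the exon in nt on the x axis, the exons in 5′ to 3′ order within each gene on the y axis and the first 300 nt downstream shaded. Exons with a delta PSI of -0.1 or lower are red, and the shaded stretch holds ticks for 4 exons, 3 of them red.

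Mutually exclusive events had 27 members, of which 25 were tested, and 0 were called by limma, as were 0% of all 26176 tested. At an unadjusted p-value under 0.05 there were 6 of the family and 395 in all. Without SCRM replicate 1, 1 of the family and 21 in all were called, and without SCRM replicate 2, 4 and 1492. The conditions differed by 0.1 or more in PSI in 6 of the 25 and in 3.58% of all. Without SCRM replicate 1 the counts were 3 of the 25 and 3.06%. In EPB41L1 the share of a 183 nt exon against the 411 nt exon was 0.799 and 0.781 with RBFOXi and 0.604 and 0.656 with SCRM. In EPB41 the share of a 177 nt exon against a 129 nt exon was 0.568 and 0.485 against 0.288 and 0.353 in an event with the 102 nt exon as downstream flank. A second event of these EPB41 exons, with the 81 nt exon as downstream flank, had 0.753 and 0.780 against 0.561 and 0.610. All 3 events count, on the side that is higher with RBFOXi, the junction that skips the 411 nt or the 63 nt exon. They therefore share reads with the skipped exon events and are not independent of them. The shared junction is only part of that side. In EPB41 it had 98, 73, 9 and 27 counts, of 244, 190, 24 and 121 in the event with the 102 nt flank. How much of the differences comes from the shared junctions was not tested. The share of the 102 nt against the 54 nt exon of EPB41L2 overlapped between conditions (0.498 and 0.730 against 0.351 and 0.603). Its delta of 0.14 came to 0.01 without SCRM replicate 1. The remaining 2 EPB41 events with such a delta, of 0.11 and -0.12 with this library and 0.05 and -0.09 without it, set exons of 81, 102 and 105 nt near the 3′ end against each other. As skipped exons, those of 81 nt and 102 nt were included at 0.970 or more in every library. The alternative 3′ splice sites of the family, of which 2 were tested, had delta values of 0.00440 and 0.0189, and 0 were called, as were 0% of all 3009, with 0 of the 2 and 100 of all at an unadjusted p-value under 0.05. Of the alternative 5′ splice sites, 2 were tested and 0 called, as were 0% of all 2281, with 1 and 82 at an unadjusted p-value under 0.05. No retained intron event listed a member.

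Among 28 listed partners of the membrane skeleton, such as spectrins, adducins, ankyrins and tropomodulins, 17 genes had tested skipped exon events, 97 in all. By limma, 0 were called lower and 1 was called higher, against 0.053% and 0.0151% of all tested events. A delta PSI of -0.1 or lower was found for 6 of the 97 and of 0.1 or higher for 4, against 4.83% of all in either direction. Without SCRM replicate 1 these were 9 and 2, against 4.77% of all. The called exon was a 96 nt exon of ADD3 (chr10:111892063-111892158), the gamma adducin that caps and links actin filaments to spectrin. It had a PSI of 0.207 and 0.318 with RBFOXi and 0.0435 and 0.0528 with SCRM. The conditions did not overlap, and delta PSI was 0.21 in the opposite direction to the family's leading exons, with limma's adjusted p = 0.0289. With limma the call was lost without SCRM replicate 1 (adjusted p = 0.741), without SCRM replicate 2 (adjusted p = 0.304), without RBFOXi replicate 2 (adjusted p = 0.0583) and with a pseudocount of 0.1 (adjusted p = 0.498). The adjusted p-values ran from 6.34e-07 to 0.741 over 10 alternatives. Of 28 other FERM domain genes, such as ezrin, radixin, moesin and talins, 21 had 120 tested events, of which 0 were called. Of these, 4 had a delta PSI of -0.1 or lower and 7 of 0.1 or higher, against the same 4.83%. Without SCRM replicate 1 these were 3 and 6, against 4.77% of all, and without SCRM replicate 2 they were 9 and 13, against 9.0%. The median delta PSI was -0.000135 for the partners and 0.000811 for the FERM genes.

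Likeness was taken as the Euclidean distance over the PSI values of the 4 libraries, among exons of genes outside the family. Members such as the 63 nt exon of EPB41L2 were left out. The exon most like the 411 nt exon of EPB41L1 was an 87 nt exon of ABI1 at a distance of 0.0386, followed by a 69 nt exon of ST7 (0.110). For the 147 nt exon of EPB41L2 these were a 69 nt exon of SYNE2 (0.0873) and a 21 nt exon of KIF21A (0.0913). Outside the family, the 63 nt exon of EPB41 was nearest to a 36 nt exon of FAT1 (0.146) and a 73 nt exon of PLAGL1 (0.158). The exons of PLAGL1 and KIF21A had as few as 12 and 11 counts in a library.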

How the data were processed

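RNA-seq was performed on 4 libraries of U87MG cells. The authors ran STAR 2.4.2a for unique alignments of paired reads on hg19, then rMATS 3.0.9 with UCSC known genes, and whether the libraries kept strand is not given in the sources used here. The deposited values are whole-number counts of inclusion and skipping reads, 2 libraries to a cell, with the effective length of each form. A read can enter several events, and sums over skipped exon events were 114415530 to 136097319 per library. Deposited p-values, FDRs and inclusion levels were not used. PSI was (inclusion counts / length) over its sum with (skipping counts / length). Events were tested if they had at least 5 counts in every library and a mean of at least 20 per library. They also needed at least 4 counts of each form, summed over the libraries. These events entered limma 3.58.1 (R 4.3.3) on log2 odds with a pseudocount of 0.5 and condition as the only term. Benjamini-Hochberg adjustment was made within each event type over the whole table. The fit was tested on simulated data with changes of known size. Nearly all directions were right, but for skipped exons limma called none or a minority of the changed events where libraries varied more beyond counting error, so an event without a call is not shown to be unchanged. The quasi-binomial alternative called more, with more false calls for skipped exons, and limma's false calls for mutually exclusive exons exceeded the nominal rate. Each exon is represented by its tested event with the most counts. An exon is described in full if its mean SCRM PSI was between 0.05 and 0.95 or its absolute delta PSI was at least 0.1. The leading exon of a gene has the largest absolute delta PSI, and for each the 2 exons nearest in PSI outside the family are named. Introns and annotation came from GRCh37, which is hg19, and GENCODE 44, and no gene on the other strand overlapped these exons. Sequence motifs were counted on the transcript strand, and 1 intron sequence is not reported here. Python 3.11.15 was used. Members and lists were chosen with earlier results of these data known. Intervals cover counting error only.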

Additional observations from a re-analysis of the deposited data

How the results depend on the processing

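Of the skipped exon events, 3 were called in the family under 8 of the alternatives or 4 with the replicate number as a block, which added the 63 nt exon of EPB41. The count was 0 with a pseudocount of 0.1, and leaving out a library gave 0 to 3, with 0 without SCRM replicate 1 and 0 without SCRM replicate 2. For mutually exclusive exons the count was 2 with the replicate block and 0 to 4 with a library left out, namely 1 without SCRM replicate 1 and 4 without SCRM replicate 2. The lone SCRM library is then assumed to vary like the others. The alternative 3′ and 5′ splice sites had 0 calls under each alternative. No retained intron event and no EPB41L3 exon gave a value. Deviations of libraries with the same number correlated at 0.0836 to 0.118 over event types, and with 2 pairs the numbers were not taken to pair the libraries. The titles of same-numbered libraries also share the letters D_R or P, whose meaning is not given in the sources used here, so a shared batch cannot be told. With the block, 119 skipped exon events were called in all against 27 without it, and 77 mutually exclusive events against 0. Delta PSI of the leading exons kept its direction under each alternative. The mean over both events of the 63 nt exon of EPB41 was -0.18, since the second event follows an included 57 nt exon. The plain share of counts gave -0.15 for the 411 nt exon of EPB41L1 and -0.39 for the 147 nt exon of EPB41L2. With a library left out, the values ran from -0.45 to -0.28 for EPB41, from -0.37 to -0.31 for EPB41L1 and from -0.47 to -0.41 for EPB41L2. UGCAUG downstream was found in 16.1% of family exons in 200 nt and 22.6% in 500 nt, against 6.02% and 12.6% of all distinct cassette exons tested. Counts limit EPB41 most, at 21 in SCRM replicate 1.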
